A study of Mus musculus with 12 samples.

Results

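The genes of the cell division cycle were followed in mouse kidney after injury to another organ, the liver. A list of 46 genes was set by name, from known roles in the cell cycle, and 42 of them were in the table of 14091 genes. They comprise 3 D-type cyclins, 13 genes of G1/S and S phase, and 26 genes of G2 and mitosis; Ccne1, Cdc6, Aurkb and Bub1 were not analysed here.

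Kidney RNA of wild-type C57BL/6 mice was sequenced in 4 groups of 3 mice, 1 library per mouse. The HFD + hIRI mice ate a high fat diet of 12.6% protein, 29% fat and 46.2% carbohydrates for 12 weeks from the age of 10 weeks, and were then given hepatic ischemia-reperfusion injury (hIRI). The clamp closed for 60 min the part of the hepatic pedicle that feeds the left lateral and right median lobes, so the kidney itself was never clamped. The HFD + sham mice had the same diet and a sham procedure. The ND + hIRI and ND + sham mice had the same procedures on the control diet (ND, 20% protein, 10% fat and 70% carbohydrates). All kidneys were taken at 6 h, whole tissue was extracted, and the study asked how a fatty liver alters the kidney's response.

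In G1, D-type cyclins bind CDK4 and CDK6 and begin the phosphorylation of the retinoblastoma protein, which frees E2F factors to switch on the genes of DNA replication. Genes of G2 and mitosis follow later, held silent in resting cells by the DREAM complex and switched on by MYB-MuvB and FOXM1, which act through CHR elements close to the transcription start. CCAAT boxes are a separate element that is also common there. Adult kidney tubule cells rarely divide, and after direct tubular injury many re-enter the cycle. In whole tissue, fewer cells of a type and less RNA per cell cannot be told apart.

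The libraries held between 20874584 and 29451344 counts in genes, and levels are given as counts per 1000000 counts of the TMM-scaled library (CPM). All 12 kidney tubule and podocyte markers on the list used were present, with summed levels of 25846 to 42504 CPM, and libraries of 1 group differed by more than counting noise. ND + hIRI replicate 1 stood apart from its group: it lay at -26.0 on the first principal component, which held 54.4% of the variance, while ND + hIRI replicates 2 and 3 lay at 15.7 and 22.5 and the 6 sham libraries between -37.9 and -18.5. HFD + hIRI replicate 1 stood out at the other end, at 97.4, against 44.9 and 19.4 for replicates 2 and 3 of that group. The library numbers in the labels fall into a lower run of 4 libraries, which holds ND + hIRI replicate 1, ND + sham replicate 1 and HFD + sham replicates 1 and 2, and a higher run of 8, which holds every HFD + hIRI library; the labels give all 12 the same batch.

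Promoters of 5 G2 and mitosis members are shown because they carry the elements through which such genes are usually switched on, and because Kif23, Cenpe and Smc2 changed after hIRI while Cdk1 and Ccnb2 did not pass any test. Each runs 5′ to 3′ on the gene's strand, from 150 bases before to 30 bases after the RefSeq transcription start (build GRCm38.p6). Capitals mark matches, on either strand, to any of 3 motifs. The CHR element was searched as TTTGAA and the CCAAT box by the letters of its name. The E2F core was searched as TTNNCGC, where every N is C or else G. No match overlapped another in these windows. They lie at chr10:69352883-69353062 (Cdk1, minus strand), chr9:70421525-70421704 (Ccnb2, minus strand), chr9:61946770-61946949 (Kif23, minus strand), chr3:135212413-135212592 (Cenpe, plus strand) and chr4:52439071-52439250 (Smc2, plus strand).
Cdk1: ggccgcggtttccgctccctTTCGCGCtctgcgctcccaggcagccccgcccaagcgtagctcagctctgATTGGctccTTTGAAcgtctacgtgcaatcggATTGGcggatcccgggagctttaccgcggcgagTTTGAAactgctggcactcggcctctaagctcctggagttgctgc
Ccnb2: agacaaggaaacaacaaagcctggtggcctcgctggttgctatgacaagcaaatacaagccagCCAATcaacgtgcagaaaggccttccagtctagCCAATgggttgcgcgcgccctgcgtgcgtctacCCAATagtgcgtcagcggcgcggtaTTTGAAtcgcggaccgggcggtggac
Kif23: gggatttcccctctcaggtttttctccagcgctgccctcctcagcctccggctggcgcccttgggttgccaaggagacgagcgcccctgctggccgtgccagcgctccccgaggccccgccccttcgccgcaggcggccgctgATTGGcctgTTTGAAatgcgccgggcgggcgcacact
Cenpe: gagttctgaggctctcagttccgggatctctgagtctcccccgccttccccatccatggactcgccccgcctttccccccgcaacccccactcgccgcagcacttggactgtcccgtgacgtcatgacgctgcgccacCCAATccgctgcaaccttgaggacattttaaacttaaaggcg
Smc2: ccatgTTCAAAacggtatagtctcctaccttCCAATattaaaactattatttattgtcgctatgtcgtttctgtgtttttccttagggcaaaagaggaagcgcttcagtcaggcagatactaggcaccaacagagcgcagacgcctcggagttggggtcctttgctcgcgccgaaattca
The Cdk1 window held 2 CHR elements, 2 CCAAT boxes and 1 E2F core, and the Ccnb2 window 1 CHR element and 3 CCAAT boxes. Kif23 and Smc2 each had 1 of both, although in Smc2 both lay near the upstream end of the window, and Cenpe had 1 CCAAT box and no CHR match. RefSeq promoters of 300 bases were at hand for 33 of the 42 members. A member was counted once, by a match in any promoter of its gene, while the shares of all promoters count each promoter singly. A CHR match was present in 16 of the 21 G2 and mitosis members, 1 of the 11 G1/S and S phase members (Mcm2) and 17.9% of all 32851 promoters. E2F cores were found in 7 of the 11 G1/S and S phase members, 4 of the 21 G2 and mitosis members and 9.57% of all promoters, and CCAAT boxes in 8 of 11, 18 of 21 and 37.4%. These matches are a description of letters and say nothing of binding in these kidneys.

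Most of the mitotic genes were weakly expressed, while a few members lay above the median gene. Per kilobase of transcript, the highest member was Ccnd1, at 52.7 CPM per kb over the 12 libraries, followed by Pcna at 37.1, Ccnd3 at 36.7 and Bub3 at 19.5, against a median of 7.15 CPM per kb over all genes. Mcm7 at 7.61 and Smc4 at 7.43 CPM per kb were close to that median. The lowest was Cenpf, which encodes a kinetochore protein, at 0.0688 CPM per kb. As levels not divided by length, 18 of the 26 G2 and mitosis members averaged under 2 CPM, and 11 members averaged under 1 CPM. Only 34 of the 42 had at least 10 counts in every library, so that for genes such as Hmmr (3 to 46 counts per library) and Aurka (5 to 20 counts) only large differences were detectable at this depth.

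Cyclin D1 was the D-type cyclin that changed. Ccnd1 (chr7:144929931-144939925, minus strand, mm10) stood at 54.4, 72.7 and 145 CPM in HFD + hIRI kidneys, against 291, 297 and 212 CPM in HFD + sham kidneys. All 3 HFD + hIRI libraries lay below all 3 HFD + sham libraries. The log2 fold change was -1.55 ± 0.45 (SE), and Ccnd1 passed the edgeR quasi-likelihood test with Benjamini-Hochberg adjustment over all genes (adjusted p = 0.036). In ND + hIRI kidneys Ccnd1 was at 284, 77.0 and 159 CPM, against 233, 246 and 329 CPM in ND + sham kidneys. Replicate 1 of ND + hIRI was inside the sham range, replicates 2 and 3 were below it, and the log2 fold change of -0.63 ± 0.44 did not pass (adjusted p = 0.515). With both diets in 1 contrast Ccnd1 fell by 1.09 on the log2 scale (SE 0.31, adjusted p = 0.031), and without ND + hIRI replicate 1 it fell by 1.37 (adjusted p = 0.008). The response did not differ between the diets by the test of the difference itself (log2 difference -0.92 ± 0.62, adjusted p = 0.572).

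Cyclins D2 and D3 showed no such difference. Ccnd2 measured 18.8, 18.7 and 16.3 CPM in HFD + hIRI kidneys, against 19.0, 16.8 and 17.6 CPM in HFD + sham kidneys, and the groups overlapped (log2 fold change 0.01 ± 0.23). Ccnd3, the main D-type cyclin of many blood cells, was at 83.7, 76.0 and 77.4 CPM in HFD + hIRI kidneys, against 95.8, 87.4 and 83.1 CPM in HFD + sham kidneys (log2 fold change -0.17 ± 0.12). On the control diet, Ccnd2 was at 14.9, 31.3 and 18.9 CPM after hIRI, against 14.1, 19.1 and 16.7 CPM after sham. Ccnd3 was at 98.8, 75.4 and 71.6 CPM in ND + hIRI kidneys, against 87.0, 77.3 and 81.1 CPM in ND + sham kidneys. Neither gene passed in any of the 6 comparisons. The make-up of D-type cyclin RNA differed accordingly: per length, Ccnd1 was 37.1% ± 12.5 (SD, n = 3) of the 3 cyclins in HFD + hIRI kidneys, against 62.1% ± 3.5 in HFD + sham kidneys. In ND + hIRI kidneys this share was 50.2% ± 14.2, against 64.1% ± 4.6 in ND + sham kidneys. Of the exon bases of Ccnd3, 15.8% are shared with Bysl on the other strand, and Ccnd1 shares none with a gene in the table.

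**Figure D1:**
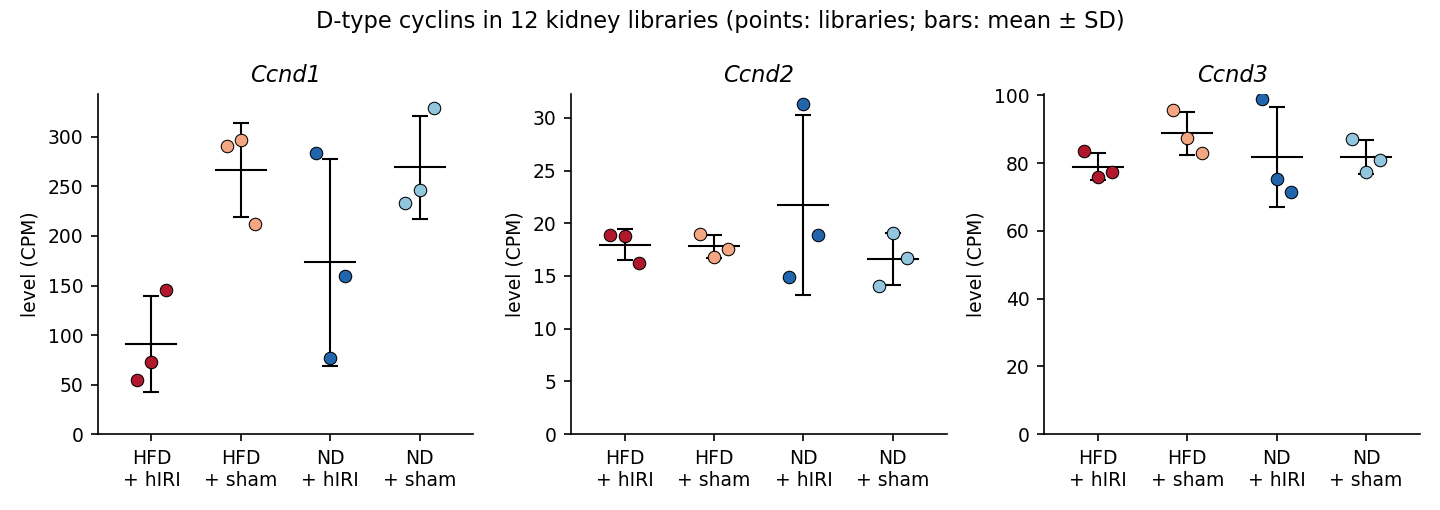
Levels of Ccnd1, Ccnd2 and Ccnd3 in CPM (vertical axes) in each of the 12 libraries, by group, with the mean and SD of 3 libraries as black lines. The Ccnd1 points of HFD + hIRI lie between 54.4 and 145 CPM, below every HFD + sham point, while for Ccnd2 these groups share most of their range and for Ccnd3 they meet only between 83.1 and 83.7 CPM.

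Across all members, hIRI on the high fat diet moved few genes. In HFD + hIRI over HFD + sham, 1 of the 42 members rose and 3 fell; over all genes 11.4% rose and 8.47% fell, and whether the members differed from genes at large was not tested. The ranges of the 3 libraries did not overlap for 6 members in the higher direction and 5 in the lower one, against 23.1% and 23.6% of all genes. The member that rose was Pcna, the sliding clamp that holds DNA polymerase on its template and also serves DNA repair. Those that fell were Ccnd1, Cenpe, a kinesin that carries chromosomes along spindle microtubules at the kinetochore, and Smc2, a core subunit of the condensin complexes. With both diets together, in both hIRI groups over both sham groups, 1 member rose (Kif23) and 4 fell (Ccnd1, E2f1, Cenpe and Smc2), against 12.9% and 10.9% of all genes. With library totals in place of TMM the median of all genes shifted to -0.17 on the high fat diet and -0.11 with the diets together, and the split of all calls on the high fat diet was 852 higher and 2112 lower in place of 1607 and 1194. The median log2 fold change of the 42 members was -0.14 on the high fat diet and 0.09 with the diets together, and that of all genes was -0.01 and 0.00.

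**Figure D2:**
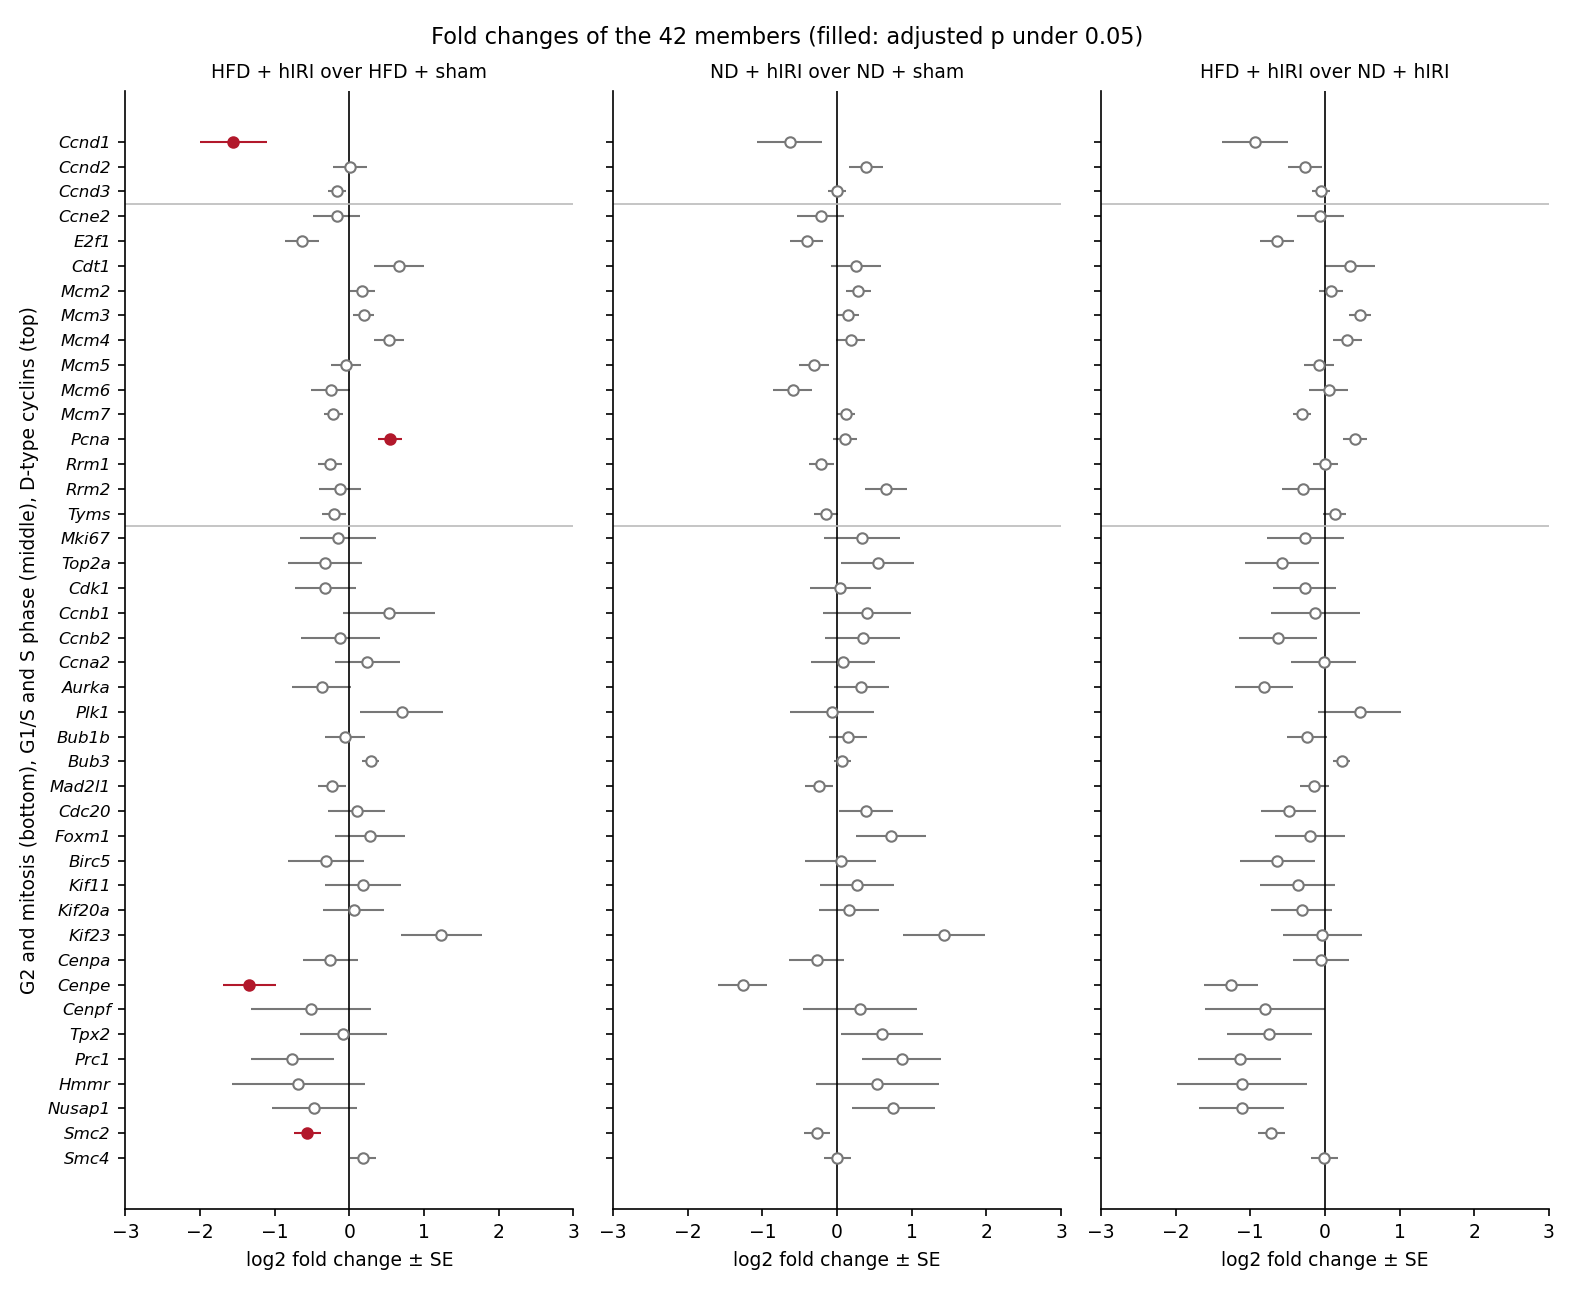
Log2 fold change with its standard error (horizontal axes) for each of the 42 members (rows, in the order D-type cyclins, G1/S and S phase, G2 and mitosis) in 3 comparisons; filled points passed at an adjusted p under 0.05. Only Ccnd1, Pcna, Cenpe and Smc2 are filled, all in HFD + hIRI over HFD + sham, and most G2 and mitosis points lie left of 0 in HFD + hIRI over ND + hIRI.

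Among the genes of G1/S and S phase, the replication clamp was higher and the transcription factor E2F1 lower after hIRI. Pcna (chr2:132249286-132253180, minus strand) was at 75.3, 52.9 and 50.1 CPM in HFD + hIRI kidneys, against 41.2, 38.3 and 42.7 CPM in HFD + sham kidneys. Every HFD + hIRI library was above every HFD + sham library, and replicate 1 was the highest of all. Pcna rose by 0.54 ± 0.16 on the log2 scale (adjusted p = 0.039), a call lost with upper quartile scaling or with library totals alone. It was at 39.3, 42.2 and 53.5 CPM in ND + hIRI kidneys, against 42.6, 38.4 and 45.0 CPM in ND + sham kidneys, and did not pass (log2 fold change 0.10 ± 0.16, adjusted p = 0.794).

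E2f1 (chr2:154559400-154569892, minus strand), which drives the genes of S phase, was at 1.55, 1.38 and 1.80 CPM in HFD + hIRI kidneys, against 2.10, 2.40 and 2.85 CPM in HFD + sham kidneys. It was at 2.50, 2.39 and 2.50 CPM in ND + hIRI kidneys, against 3.56, 3.79 and 2.46 CPM in ND + sham kidneys. The ranges were separate on the high fat diet and overlapped on the control diet through ND + sham replicate 3. E2f1 fell by 0.52 on the log2 scale with the diets together (SE 0.16, adjusted p = 0.036), while within each diet it did not pass in edgeR with TMM scaling (-0.64 ± 0.23 and adjusted p = 0.065 on the high fat diet, -0.41 ± 0.22 and adjusted p = 0.417 on the control diet). On the high fat diet it passed with upper quartile scaling (adjusted p = 0.046), with library totals alone (adjusted p = 0.035) and in limma voom with quality weights (adjusted p = 0.022).

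The 6 subunits of the MCM helicase, which opens DNA at replication origins, did not move together. Mcm2 was at 16.1, 13.6 and 13.1 CPM in HFD + hIRI kidneys, against 12.7, 12.6 and 12.6 CPM in HFD + sham kidneys (log2 fold change 0.17 ± 0.16, adjusted p = 0.447). It was at 17.2, 11.6 and 11.7 CPM in ND + hIRI kidneys, against 12.0, 9.72 and 11.5 CPM in ND + sham kidneys (0.28 ± 0.16, adjusted p = 0.451). On the high fat diet Mcm4 had the largest log2 fold change of the 6, 0.53 ± 0.20 (adjusted p = 0.071), and Mcm6 the lowest, -0.25 ± 0.26 (adjusted p = 0.498). There Mcm4 passed in DESeq2 (adjusted p = 0.042) and in limma voom with quality weights (adjusted p = 0.025). With the diets together limma voom called Mcm4 higher (0.27, adjusted p = 0.046) and Mcm6 lower (-0.61, adjusted p = 0.010). Mcm3 had the largest positive value of the group in HFD + hIRI over ND + hIRI (0.47 ± 0.15, adjusted p = 0.093) and a like value in HFD + sham over ND + sham (0.43 ± 0.15, adjusted p = 0.426).

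Rrm2, the subunit of ribonucleotide reductase made mainly in S phase, was at 4.85, 2.64 and 4.38 CPM in HFD + hIRI kidneys, against 4.49, 4.54 and 3.88 CPM in HFD + sham kidneys. It was at 3.41, 5.99 and 5.09 CPM in ND + hIRI kidneys, against 2.98, 3.90 and 2.32 CPM in ND + sham kidneys. The hIRI groups overlapped their sham groups on both diets (log2 fold changes -0.13 ± 0.28 and 0.65 ± 0.29, adjusted p = 0.760 and 0.330). Within each of the 3 same-number pairs of the control diet Rrm2 was higher in the hIRI library, and with this pairing as a block on the ND libraries alone its log2 fold change was 0.65 ± 0.25 (adjusted p = 0.272). The labels do not say that same-number mice were paired. In both ND groups replicate 1 is in the lower run of library numbers and replicates 2 and 3 in the higher run. The remaining members, the licensing factor Cdt1, cyclin E2 (Ccne2), Rrm1 and the thymidylate synthase gene Tyms, had log2 fold changes between -0.26 and 0.66 on the high fat diet, and none passed. Cdt1 stood at 10.1 CPM in HFD + hIRI replicate 1, against 3.24 to 5.33 CPM in the other 11 libraries. Of the exon bases of Ccne2, 53.9% are shared with Ints8 on the other strand, so its counts are uncertain.

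In G2 and mitosis, Cenpe (chr3:135212563-135273540, plus strand) had the lowest adjusted p of any member. It was at 0.723, 0.344 and 0.968 CPM in HFD + hIRI kidneys, against 1.28, 1.89 and 1.96 CPM in HFD + sham kidneys. In ND + hIRI kidneys it was at 1.51, 2.06 and 1.25 CPM, against 3.32, 4.21 and 4.06 CPM in ND + sham kidneys. The ranges did not overlap in either hIRI comparison, nor between the diets after hIRI or after sham. These levels correspond to 9 to 120 counts per library. Cenpe fell by 1.30 on the log2 scale with the diets together (SE 0.24, adjusted p = 0.0091), and by 1.34 on the high fat diet (SE 0.36, adjusted p = 0.030). On the control diet its log2 fold change was -1.27 ± 0.33 (adjusted p = 0.164). The diet differences, -1.25 ± 0.36 in HFD + hIRI over ND + hIRI and -1.18 ± 0.32 in HFD + sham over ND + sham, did not pass (adjusted p = 0.083 and 0.341), and the 2 hIRI responses differed by -0.07 ± 0.46. Cenpe was the only member whose call with the diets together was kept in all 12 fits that each left out 1 library, and also with the run of library numbers as a covariate (log2 fold change -1.38, adjusted p = 0.023).

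Smc2 (chr4:52439221-52488365, plus strand) was likewise lowest in HFD + hIRI and highest in ND + sham kidneys, with smaller steps. It was at 3.15, 3.25 and 4.01 CPM in HFD + hIRI kidneys, against 4.36, 5.19 and 5.88 CPM in HFD + sham kidneys, and at 6.22, 4.68 and 6.24 CPM in ND + hIRI kidneys, against 6.51, 7.09 and 7.07 CPM in ND + sham kidneys. Neither hIRI group overlapped its sham group. Smc2 fell by 0.56 on the log2 scale on the high fat diet (SE 0.18, adjusted p = 0.0497, just under the threshold) and by 0.42 with the diets together (SE 0.13, adjusted p = 0.037). Its condensin partner Smc4 was at 39.8, 29.6 and 24.2 CPM in HFD + hIRI kidneys, against 25.4, 27.0 and 29.99 CPM in HFD + sham kidneys, and did not pass (log2 fold change 0.18 ± 0.18, adjusted p = 0.458).

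Kif23 (chr9:61917278-61946799, minus strand), a kinesin of the central spindle that is needed for cytokinesis, was the mitotic gene that rose. It was at 6.92, 7.19 and 5.53 CPM in HFD + hIRI kidneys, against 2.89, 2.14 and 3.32 CPM in HFD + sham kidneys. In ND + hIRI kidneys it was at 2.89, 9.12 and 8.16 CPM, against 1.61, 4.91 and 0.956 CPM in ND + sham kidneys. On the control diet ND + hIRI replicate 1 lay below ND + sham replicate 2, so that the groups overlapped. Within each of the 3 same-number pairs of that diet the hIRI library was the higher one, and with the pairing as a block on the ND libraries alone the log2 fold change was 1.55 ± 0.50 and did not pass (adjusted p = 0.239). As for Rrm2, the labels name no source of this pairing, and its numbers follow the library run. With the diets together Kif23 rose by 1.33 ± 0.39 on the log2 scale (adjusted p = 0.033), and by 1.51 without ND + hIRI replicate 1 (adjusted p = 0.012). On the high fat diet the ranges were separate, but Kif23 did not pass in edgeR on all 12 libraries. It passed on that diet in limma voom with quality weights (log2 fold change 1.34, adjusted p = 0.012). In edgeR on only the libraries compared it passed too (1.23, adjusted p = 0.038). Prc1, which bundles microtubules of the central spindle, did not pass in any comparison (-0.76 ± 0.56 on the high fat diet and 0.86 ± 0.53 on the control diet, adjusted p = 0.324 and 0.473).

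These calls, like the counts over all genes, changed when single libraries were left out. Of the 12 fits that each left out 1 library, the call with the diets together was kept in 4 for Ccnd1 (without ND + sham replicate 2, ND + hIRI replicate 1 or 2, or HFD + hIRI replicate 3) and in 3 each for E2f1, Kif23 and Smc2, all of which kept it without ND + hIRI replicate 1 and without HFD + hIRI replicate 3, and E2f1 also without ND + sham replicate 3, Kif23 without ND + sham replicate 2 and Smc2 without HFD + sham replicate 1. The adjusted p in these 12 fits reached 0.072 for Ccnd1, 0.082 for E2f1, 0.080 for Kif23 and 0.086 for Smc2, and no fold change turned its direction. On the high fat diet the call was kept in 7 fits for Cenpe, 5 for Ccnd1, 4 for Pcna and 3 for Smc2, and none of the 4 passed without HFD + hIRI replicate 1 or 2 or without any 1 of the HFD + sham libraries. Without ND + sham replicate 1 or 2, Ccnd1, Pcna and Smc2 were lost too, without ND + sham replicate 3, Pcna and Smc2, and without ND + hIRI replicate 3, Smc2. HFD + hIRI replicate 1 is the library at the far end of the first component, and leaving it out gave the following values (adjusted p = 0.061 for Cenpe, 0.120 for Ccnd1, 0.113 for Pcna and 0.122 for Smc2). With the run of library numbers as a covariate none of these 4 passed on that diet either (adjusted p between 0.081 and 0.151). Of all genes, 12 were higher and 6 lower in that fit, against 1607 and 1194 without the covariate. Leaving out HFD + sham replicate 1, 2 or 3 gave 155 and 121, 1 and 0, or 22 and 23 over all genes. Leaving out HFD + hIRI replicate 1 or 2 gave 570 and 530, or 926 and 478. With the diets together, leaving out 1 library gave 1394 to 4968 calls over all genes. Whether the members differed from genes at large in this was not tested.

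**Figure D3:**
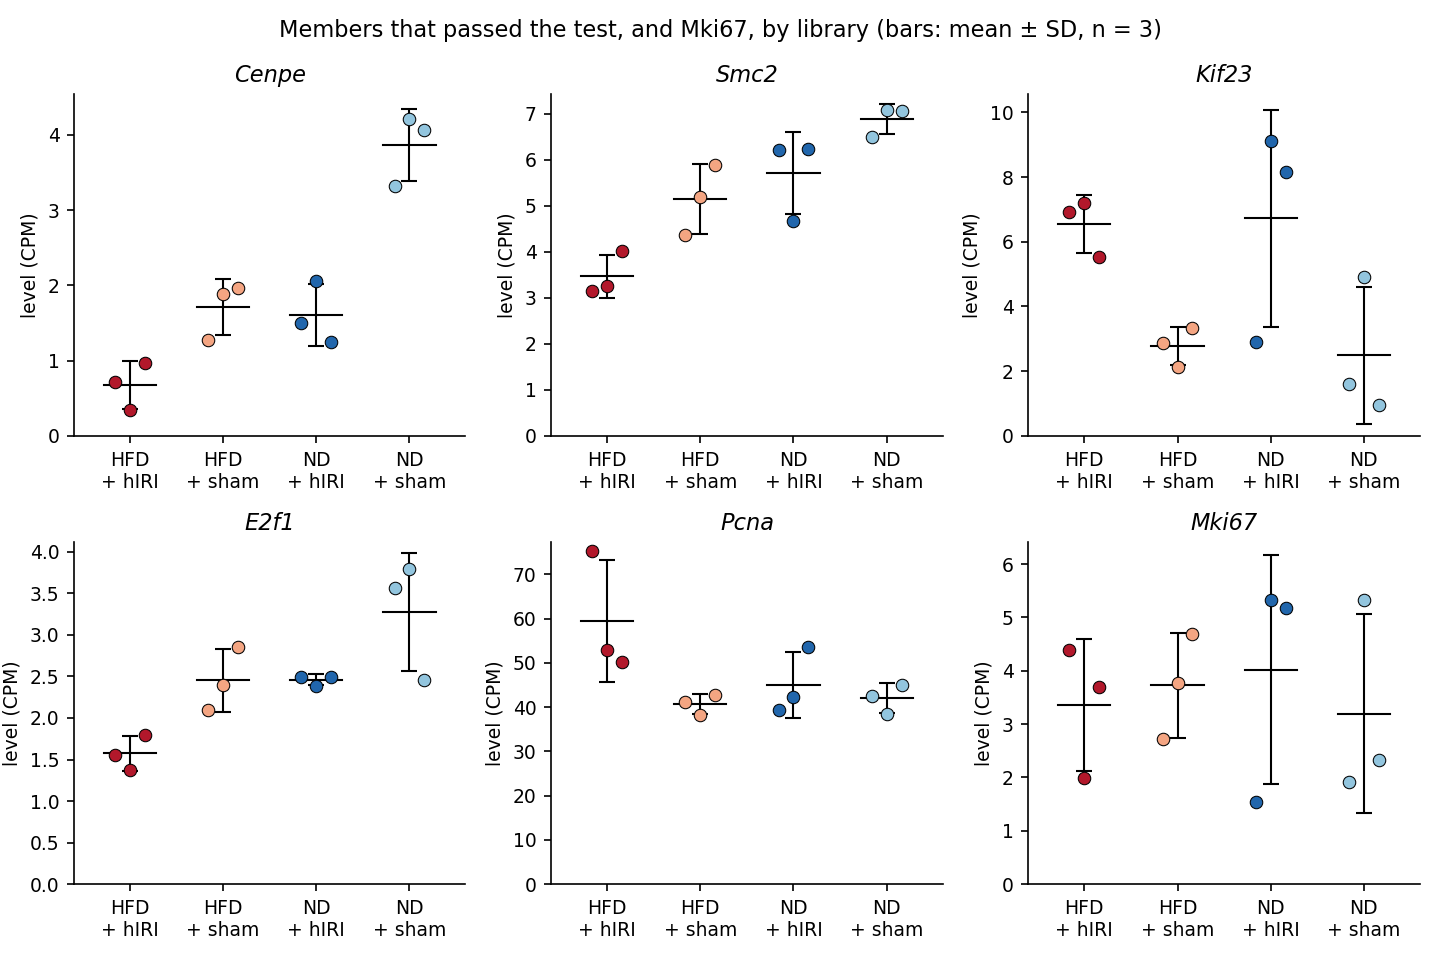
Levels in CPM (vertical axes) of the 5 G1/S, S phase and mitotic members that passed a test, with Mki67 beside them, in each library by group; black lines give the mean and SD of 3 libraries. Cenpe lies between 0.344 and 0.968 CPM in HFD + hIRI and between 3.32 and 4.21 CPM in ND + sham with the other groups between them, whereas the Mki67 ranges of all 4 groups overlap.

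Of the standard markers of cycling cells, Pcna alone passed, on the high fat diet as given above, and Mki67, Top2a, Cdk1, Mcm2, Rrm2, Cdc20, Aurka and Plk1 did not pass in any of the 6 comparisons in edgeR. Mki67, the Ki-67 antigen present in all active phases of the cycle, was at 4.39, 1.99 and 3.69 CPM in HFD + hIRI kidneys, against 2.72, 3.77 and 4.69 CPM in HFD + sham kidneys. Mki67 was at 1.55, 5.33 and 5.19 CPM in ND + hIRI kidneys, against 1.92, 5.34 and 2.32 CPM in ND + sham kidneys. Each group held both low and high libraries, and the log2 fold changes after hIRI were -0.15 ± 0.51 and 0.33 ± 0.51 on the high fat and control diets (adjusted p = 0.839 and 0.783). Top2a, the topoisomerase that untangles replicated chromosomes, was at 3.05, 1.68 and 2.12 CPM in HFD + hIRI kidneys, against 2.26, 3.52 and 2.77 CPM in HFD + sham kidneys. It was at 1.35, 3.79 and 5.04 CPM in ND + hIRI kidneys, against 1.78, 3.86 and 1.30 CPM in ND + sham kidneys. Thus ND + hIRI replicate 1 was the lowest and ND + sham replicate 2 the highest of its group for both genes.

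Cdk1, the kinase that starts mitosis, was at 0.826, 0.536 and 1.01 CPM in HFD + hIRI kidneys, against 0.787, 0.814 and 1.36 CPM in HFD + sham kidneys (log2 fold change -0.32 ± 0.41). On the control diet Cdk1 was at 0.555, 1.26 and 1.06 CPM in ND + hIRI kidneys, against 0.788, 1.30 and 0.683 CPM in ND + sham kidneys (0.04 ± 0.40). Cdc20, which activates the anaphase-promoting complex, was at 0.878, 0.918 and 1.11 CPM in HFD + hIRI kidneys, against 0.918, 0.986 and 0.809 CPM in HFD + sham kidneys. It was at 0.595, 1.64 and 1.87 CPM in ND + hIRI kidneys, against 1.03, 1.19 and 0.888 CPM in ND + sham kidneys. Both genes overlapped between hIRI and sham on each diet.

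The mitotic kinases were near the limit of what this depth resolves. Aurka, the centrosomal Aurora kinase, was at 0.258, 0.383 and 0.599 CPM in HFD + hIRI kidneys, against 0.426, 0.729 and 0.469 CPM in HFD + sham kidneys. It was at 0.555, 0.749 and 0.912 CPM in ND + hIRI kidneys, against 0.685, 0.632 and 0.444 CPM in ND + sham kidneys. The Polo-like kinase Plk1 was at 1.14, 0.536 and 0.553 CPM in HFD + hIRI kidneys, against 0.295, 0.386 and 0.682 CPM in HFD + sham kidneys. It was at 0.277, 0.702 and 0.624 CPM in ND + hIRI kidneys, against 0.377, 0.983 and 0.307 CPM in ND + sham kidneys. All these groups overlapped, and the log2 fold changes on the high fat diet were -0.37 ± 0.40 for Aurka and 0.70 ± 0.56 for Plk1 (adjusted p = 0.505 and 0.366).

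Of the other G2 and mitosis members, the spindle checkpoint genes Bub3 and Mad2l1 varied little between libraries. Bub3 was at 52.3, 41.8 and 43.4 CPM in HFD + hIRI kidneys, against 39.9, 36.1 and 36.8 CPM in HFD + sham kidneys, with no overlap (log2 fold change 0.29 ± 0.11, adjusted p = 0.082). Mad2l1 ranged from 3.46 to 5.98 CPM over the 12 libraries. Nusap1, which encodes a spindle protein, varied far more, with 1.96, 4.44 and 8.48 CPM in HFD + hIRI kidneys, against 5.05, 5.87 and 9.75 CPM in HFD + sham kidneys. Nusap1 was at 3.84, 14.8 and 13.8 CPM in ND + hIRI kidneys, against 5.07, 9.16 and 4.99 CPM in ND + sham kidneys. For Kif20a, 34.4% of the exon bases are shared with genes on the other strand, and for Ccna2, 13.4%.

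The diet comparison after hIRI gave no member that passed in the edgeR quasi-likelihood fit used here. In HFD + hIRI over ND + hIRI, 0 of 42 members were called in either direction by edgeR, against 0.532% of all genes higher and 0.816% lower. Without adjustment 2 members were higher and 4 lower at p under 0.05, DESeq2 called 1 higher (Mcm3) and 2 lower (Cenpe and Smc2), and limma voom with quality weights called 1 lower (Cenpe). Over all 14091 genes the higher and lower counts were 2105 and 1723 without adjustment, 937 and 841 with DESeq2, and 380 and 423 with limma voom. The libraries did not overlap for 1 member in the higher direction (Mcm3) and for 4 in the lower one (E2f1, Mcm7, Cenpe and Smc2), against 12.2% and 11.5% of all genes. The signs were uneven among the mitotic genes, but most of these were high or low in the same mice, so they are not separate observations. The median log2 fold change of the 26 G2 and mitosis members was -0.34, with 24 of 26 below 0, whereas the 13 G1/S and S phase members had a median of 0.05 and all genes 0.00. Of all 14091 genes, 6969 were below 0. Only Plk1 (0.47 ± 0.56) and Bub3 (0.22 ± 0.11) of the 26 were above 0. Prc1 (-1.14 ± 0.56), Nusap1 (-1.12 ± 0.57), the hyaluronan receptor and spindle gene Hmmr (-1.11 ± 0.88) and Aurka (-0.82 ± 0.39) followed Cenpe at the lower end, and none passed.

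After hIRI on the control diet more of the mitotic genes lay above 0 than below, and there too they are not separate observations. In ND + hIRI over ND + sham no member and no gene at all passed in edgeR (0 and 0% of all genes in each direction). Without adjustment 2 members were higher and 2 lower, DESeq2 called 1 lower (Cenpe), and limma voom with quality weights called 1 higher (Kif23) and 1 lower (Cenpe). Over all 14091 genes the higher and lower counts were 1160 and 870 without adjustment, 298 and 146 with DESeq2, and 426 and 270 with limma voom. The ranges were separate for 1 member in the higher direction (Mcm3) and 2 in the lower one (Cenpe and Smc2), against 10.9% and 10.7% of all genes. The G2 and mitosis members had a median log2 fold change of 0.28 with 21 of 26 above 0, against -0.14 with 10 of 26 above 0 in HFD + hIRI over HFD + sham. Of all 14091 genes, 6973 and 6975 were above 0 in these comparisons. These comparisons share no library with each other, but each shares its hIRI libraries with HFD + hIRI over ND + hIRI.

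The medians moved with single libraries. Without ND + hIRI replicate 1 the median of the 26 genes was -0.65 in HFD + hIRI over ND + hIRI and 0.55 in ND + hIRI over ND + sham. Without ND + hIRI replicate 3 the same medians were -0.18 and -0.02. Leaving out ND + sham replicate 2 gave 0.62 in ND + hIRI over ND + sham, and leaving out ND + sham replicate 1 or 3 gave 0.04 or 0.09. On the high fat diet the median turned to 0.10 without HFD + hIRI replicate 2. In HFD + hIRI over ND + hIRI it was below 0 in all 12 fits that left out 1 library and under each scaling tried, and in ND + hIRI over ND + sham it was above 0 in 11 of these 12. With both diets together the mitotic median was 0.10 with 17 of 26 genes above 0 (7080 of all 14091 genes). It was -0.01 with library totals alone and -0.11 with the run of library numbers as a covariate.

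No member passed for diet alone or for the difference between diets. In HFD + sham over ND + sham edgeR called 0 members, against 0% of all genes higher and 0.0142% lower. Without adjustment 1 member was higher (Mcm3) and 2 lower (Cenpe and Smc2), and DESeq2 and limma voom with quality weights each called 1 lower (Cenpe). Over all 14091 genes the higher and lower counts were 646 and 594 without adjustment, 64 and 68 with DESeq2, and 164 and 152 with limma voom. The median log2 fold change was -0.10 for G2 and mitosis, -0.04 for G1/S and S phase and 0.00 for all genes. Without ND + sham replicate 2 the mitotic median was 0.32, and without HFD + sham replicate 1 it was 0.01. For the difference of the hIRI response between diets 0 members passed in edgeR, DESeq2 or limma voom with quality weights, 0 had an unadjusted p under 0.05, and 0.0071% of all genes were called higher and 0.0071% lower. For this difference, 816 of all 14091 genes were higher and 613 lower without adjustment. Its median over the G2 and mitosis members was -0.29, with 19 of 26 below 0 (7158 of all 14091 genes), and the lowest value was that of Prc1 (-1.63 ± 0.77, adjusted p = 0.504).

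Most low-level mitotic genes were high or low in the same libraries of a group. Bub3, Mad2l1, Smc2 and Smc4, which did not share this pattern, were set aside after their values were seen, and the CPM of the other 22 members were summed. The sums were 31.9, 27.5 and 36.5 CPM in HFD + hIRI kidneys, against 25.7, 33.7 and 38.5 CPM in HFD + sham kidneys. In ND + hIRI kidneys they were 21.0, 57.0 and 58.3 CPM, against 25.6, 50.5 and 24.9 CPM in ND + sham kidneys. The 3 highest sums of these 22 genes came from 2 ND + hIRI mice and 1 ND + sham mouse, and the HFD libraries stayed within 25.7 to 38.5 CPM. Summed over all 26 members, the levels were 131, 106 and 112 CPM in HFD + hIRI kidneys, against 99.2, 106 and 116 CPM in HFD + sham kidneys. The sums over all 26 were 95.3, 134 and 149 CPM in ND + hIRI kidneys, against 104, 134 and 105 CPM in ND + sham kidneys. HFD + hIRI replicate 1 was then close to the 3 highest libraries, so the gap to the HFD libraries rests on the 22 genes chosen. ND + sham replicate 2 was the highest of its group for 22 of the 26 G2 and mitosis members, ND + hIRI replicate 1 the lowest of its group for 20, and HFD + sham replicate 1 the lowest for 20. By contrast, ND + hIRI replicate 1 was the highest of its group for 8 of the 13 G1/S and S phase members.

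**Figure D4:**
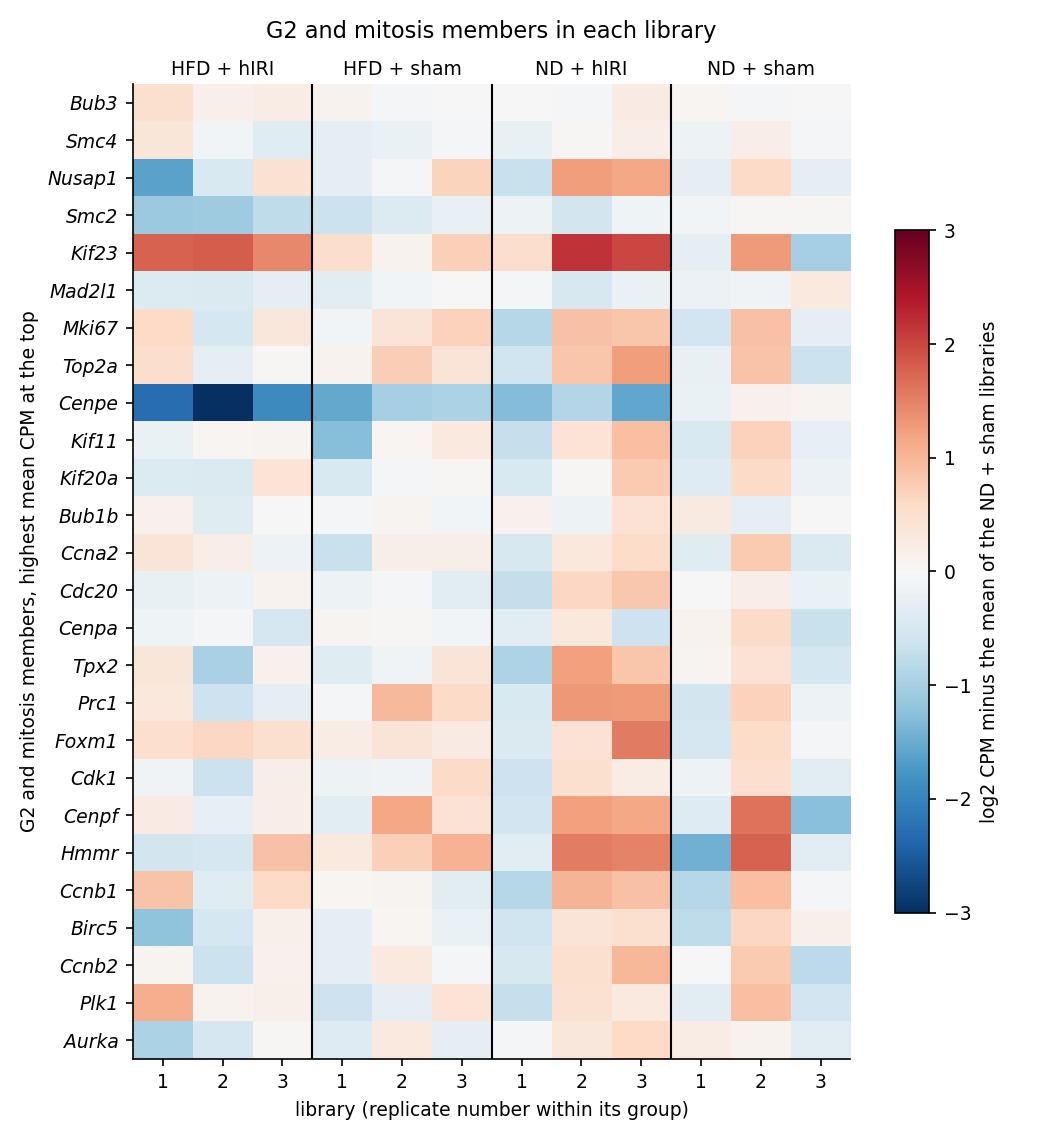
Log2 CPM of each of the 26 G2 and mitosis members (rows) in each library (columns, by group) minus the mean of the ND + sham libraries, from blue (lower) to red (higher), with colours limited at 3 either way. The columns of ND + hIRI replicates 2 and 3 and of ND + sham replicate 2 are red for most genes, Kif23 is red in all HFD + hIRI columns, and Cenpe is blue in all 9 columns outside ND + sham.

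Other cell types were measured beside these sums. The 13 leukocyte markers in the table summed to 248, 138 and 113 CPM in HFD + hIRI kidneys, against 128, 152 and 337 CPM in HFD + sham kidneys, and to 92.9, 142 and 166 CPM in ND + hIRI kidneys, against 110.3, 122 and 169 CPM in ND + sham kidneys. Ptprc, which marks all leukocytes, averaged 14.7 CPM, and Cd3e and Ly6g were not in the table. The lowest leukocyte sum and the lowest mitotic sum were both in ND + hIRI replicate 1, while the highest leukocyte sum was in HFD + sham replicate 3, whose mitotic sum was 38.5 CPM. The 4 libraries of the lower run of library numbers had mitotic sums of 21.0 to 33.7 CPM, and the 8 of the higher run 24.9 to 58.3 CPM. Of the 13 leukocyte markers, 0 rose and 2 fell (Cd8a and Csf1r) in HFD + hIRI over HFD + sham, against 11.4% and 8.47% of all genes. The part of leukocytes and of the library number run in the mitotic sums was not tested.

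The 12 tubular injury markers, among them Havcr1 (KIM-1) and Lcn2, summed to 21153, 10147 and 5229 CPM in HFD + hIRI kidneys, against 1311, 1277 and 1592 CPM in HFD + sham kidneys. They summed to 1234, 3638 and 5112 CPM in ND + hIRI kidneys, against 1385, 1344 and 1424 CPM in ND + sham kidneys. Spp1 weighs most in these sums, at 3484 CPM on average over the 12 libraries, against 182 CPM for Lcn2 and 12.3 CPM for Havcr1. The library with the highest injury sum, HFD + hIRI replicate 1, also had the lowest Ccnd1 and the highest Pcna and Cdt1. ND + hIRI replicate 1, with an injury sum below every sham library, had the highest Ccnd1 of the hIRI libraries. By the median over the 12 markers of log2 CPM minus the ND + sham mean, that library was at -0.203, against -0.220 for ND + sham replicate 1. Of the 12 markers, 7 rose and 0 fell in HFD + hIRI over HFD + sham, and 6 rose and 0 fell with the diets together. Over all genes 11.4% rose and 8.47% fell on the high fat diet, and 12.9% and 10.9% with the diets together. Whether injury accounts for these levels was not tested.

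**Figure D5:**
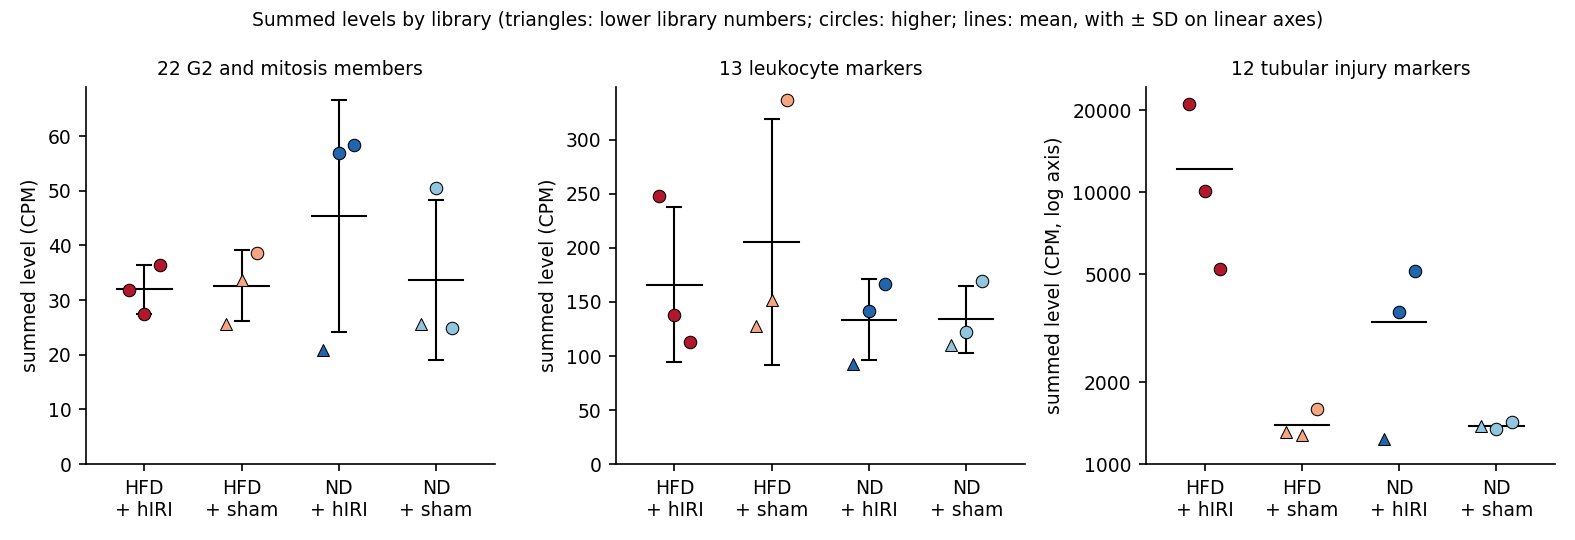
Summed CPM (vertical axes; the right one is logarithmic) of 22 G2 and mitosis members, 13 leukocyte markers and 12 tubular injury markers in each library, by group; triangles are the lower run of library numbers and circles the higher run, and lines give the mean with the SD on the linear axes. The mitotic sums are 21.0, 57.0 and 58.3 CPM in ND + hIRI, reach 50.5 CPM in ND + sham replicate 2, and are 27.5 to 36.5 CPM in HFD + hIRI, where the injury sums are highest. These 22 members were chosen after their values were seen. Over all 26 members HFD + hIRI replicate 1 is at 131 CPM, against 134 and 149 CPM in ND + hIRI replicates 2 and 3.

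Genes that act on the cycle engine were read beside the members. Of 18 CDK partners and inhibitors in the table, 3 rose and 1 fell in HFD + hIRI over HFD + sham, where 11.4% of all genes rose and 8.47% fell. Cdkn1a, which encodes the CDK inhibitor p21, was at 630.2, 126 and 113 CPM in HFD + hIRI kidneys, against 37.9, 21.7 and 34.3 CPM in HFD + sham kidneys, and at 22.7, 73.7 and 185 CPM in ND + hIRI kidneys, against 12.0, 12.9 and 12.4 CPM in ND + sham kidneys. Its log2 fold change was 3.21 ± 0.79 on the high fat diet (adjusted p = 0.025) and 3.06 ± 0.56 with the diets together (adjusted p = 0.0089). On the control diet it was 2.91 and did not pass in edgeR, while DESeq2 and limma voom with quality weights called Cdkn1a higher. ND + hIRI replicate 1 was the only hIRI library inside the range of the sham libraries of both diets, but it lay above every ND + sham library. Cks1b, an adaptor of CDKs, rose by 1.49 ± 0.42 and the kinase gene Cdk2 by 0.51 ± 0.15, while Cables1, a CDK-binding regulator, fell by 0.68 (SE 0.20) on the log2 scale. With the diets together 2 rose (Cdkn1a and Cdk2) and 1 fell (the phosphatase gene Cdc25b, by 0.43), against 12.9% and 10.9% of all genes.

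In the group of RB, E2F and DREAM genes, 1 of 16 rose and 3 fell on the high fat diet, beside the same 11.4% and 8.47% of all genes. Whether either list differed from that background was not tested. The pocket protein genes Rbl1 (p107) and Rbl2 (p130) fell by 0.71 (SE 0.22) and 0.57 (SE 0.18) on the log2 scale, and Tfdp2, an E2F partner, fell by 0.63 (SE 0.14). The MuvB gene Lin54, whose protein reads the CHR element, rose by 0.58 ± 0.14. Rbl1 was at 2.94, 4.55 and 4.80 CPM in HFD + hIRI kidneys, against 6.69, 6.64 and 6.86 CPM in HFD + sham kidneys. Lin54 was at 20.8, 18.2 and 16.5 CPM in HFD + hIRI kidneys, against 12.2, 13.1 and 11.8 CPM in HFD + sham kidneys. Neither gene overlapped between these groups. With the diets together 1 rose (Lin54) and 3 fell (Tfdp2, Rbl1 and the chromatin adaptor gene Rbbp4), against 12.9% and 10.9% of all genes.

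Among 41 other replication genes, 2 rose (Gins1, a subunit of the replicative helicase, and Orc2, of the origin recognition complex) and 2 fell (Tk1, thymidine kinase, and Pold2, of DNA polymerase delta) on the high fat diet. Over all genes 11.4% rose and 8.47% fell there. Tk1 was at 1.03, 2.72 and 3.18 CPM in HFD + hIRI kidneys, against 5.12, 5.02 and 6.22 CPM in HFD + sham kidneys, and fell by 1.23 on the log2 scale (SE 0.35, adjusted p = 0.035). With the diets together 3 rose (Orc2, Pola2 and Dbf4) and 4 fell, among them Rpa3, which encodes a subunit of the single-strand DNA binding protein RPA, and Tk1 and Dut, genes of nucleotide supply. Over all genes 12.9% rose and 10.9% fell with the diets together. Of 27 other mitosis genes, only the kinesin gene Kif20b passed, falling by 1.52 on the log2 scale (SE 0.47, adjusted p = 0.046) on the high fat diet, with 2.84, 5.51 and 5.35 CPM in HFD + hIRI kidneys, against 14.9, 7.97 and 16.5 CPM in HFD + sham kidneys. The median log2 fold changes of these 4 lists on the high fat diet were 0.05, -0.01, -0.12 and -0.31 in the order given, against -0.01 for all genes. Without HFD + hIRI replicate 1, only Cables1 and Tfdp2 were kept of the 13 calls on that diet, without HFD + sham replicate 1, only Tfdp2, without HFD + sham replicate 2 or 3, none, and without HFD + hIRI replicate 2, 5. With every library 1607 of all genes were higher and 1194 lower. In the fits just named, in that order, there were 570 and 530, 155 and 121, 1 and 0 or 22 and 23, and 926 and 478. With the run of library numbers as a covariate 0 of the 13 were kept, with only the libraries compared 1 (Gins1), and with the replicate block 7. Over all genes the higher and lower calls in these fits were 12 and 6, 433 and 403, and 1045 and 825. With the diets together, the calls of Cdkn1a, Rbl1, Tfdp2 and Rpa3 were kept in all 12 fits that left out 1 library and under the 9 other alternatives, while those of the other 10 genes ended in 1 to 10 of the 12. In HFD + hIRI over ND + hIRI, 0 of the 102 genes of these 4 lists passed in the edgeR quasi-likelihood fit used here, against 0.532% of all genes higher and 0.816% lower. Before adjustment 6 of the 102 were higher and 13 lower at p under 0.05, against 2105 and 1723 of all 14091 genes. In that comparison DESeq2 called 7 lower, Kif20b, Rbl1, Rbl2 and Tfdp2 among them, and limma voom with quality weights 2 lower (Rbl2 and Tfdp2). Over all 14091 genes DESeq2 called 937 higher and 841 lower there, and limma voom 380 and 423. Whether the 4 lists differed from genes at large was not tested.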

How the data were processed

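Raw counts per gene were deposited by the authors in 1 table for 12 kidney libraries, 1 per mouse. By the submitters' processing notes, reads were checked with FastQC 0.11.5 and aligned to mm10 with STAR 2.7.10a, genes were counted by featureCounts (Subread 2.0.3), and edgeR 3.42.4 was run on the counts. Which annotation, which strand setting and which low-count filter were applied is not given in the sources used. Log2 CPM values deposited by the authors were not used for any test, nor were the columns of the authors' own comparisons, which hold fold changes, p-values and false discovery rates. Exon coordinates in the table gave gene lengths and the exon bases shared between genes.

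Libraries held 20874584 to 29451344 counts. In R 4.3.3, edgeR 4.0.16 was fitted to all 12 libraries and 14091 genes (filterByExpr removed 0) with TMM scaling and a robust quasi-likelihood fit, without a block. Contrasts were tested 2-sided, and Benjamini-Hochberg adjustment over all genes was applied with a threshold of 0.05. CPM are counts per 1000000 counts of the TMM-scaled library, log2 CPM carry a prior count of 2, and SD are over 3 mice. The procedure was tested on simulated data. Alternatives were other scalings (DESeq2 size factors, upper quartile, library totals), no low-count filter or a minimum of 10 counts in all libraries, DESeq2 1.42.0, voom with sample quality weights in limma 3.58.1, a fit restricted to the 2 groups compared, a block on the replicate number, the run of library numbers as a covariate, and leaving out each library. Deviations from the group means correlated between the ND + hIRI and ND + sham libraries of each replicate number (0.17 to 0.20 in 3 pairs), and the labels name no source of this pairing. In both groups replicate 1 is in the lower run of library numbers and replicates 2 and 3 in the higher run. For these groups a block on the ND libraries alone was added after the data were seen.

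Values per library are given for the D-type cyclins, for the members that passed and for a fixed set of standard markers (Mki67, Top2a, Cdk1, Pcna, Mcm2, Rrm2, Cdc20, Aurka and Plk1), and other lists are shown by the genes that passed. Members and lists were chosen with earlier results of these data known. Promoters are from RefSeq (GRCm38.p6). Some items of these lists are not reported here by name.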

Additional observations from a re-analysis of the deposited data

How the results depend on the processing

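Member calls differed between tools and settings. In HFD + hIRI over ND + hIRI, 0 members passed either way in the edgeR quasi-likelihood fit used here, against 1 higher and 2 lower with DESeq2 and 1 lower with limma voom, and leaving out 1 library gave 0 to 3 lower. In HFD + sham over ND + sham, DESeq2, limma voom and the fit on only the libraries compared each gave 1 lower in place of 0. In HFD + hIRI over HFD + sham, 1 member was higher, against 0 with upper quartile scaling, library totals or the library number covariate, 2 with DESeq2, 3 with limma voom, and 0 to 2 when leaving out 1 library. The 1 higher with only the libraries compared was Kif23, not Pcna. The 3 lower calls there were 4 with upper quartile scaling, library totals or limma voom, each adding E2f1, 0 with only the libraries compared or the covariate, and 0 to 4 when leaving out 1 library. In ND + hIRI over ND + sham, limma voom gave 1 higher and 1 lower and DESeq2 1 lower in place of 0. With the diets together, 1 higher became 2 with DESeq2, 3 with limma voom, 0 with the covariate and 0 to 3 when leaving out 1 library, and 4 lower became 1 with the covariate and 1 to 5 when leaving out 1 library. No member call turned its direction under any alternative. The cause of these changes was not tested.

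Counts over all genes moved too. In HFD + hIRI over HFD + sham, DESeq2 called 2364 higher and 1858 lower, and limma voom 2974 and 2862. Upper quartile scaling gave 1052 and 1621 there, and only the libraries compared 433 and 403. With the diets together, edgeR called 1814 and 1531, DESeq2 2405 and 2054, limma voom 2891 and 2817, and the covariate left 619 and 607. DESeq2 gave 937 higher and 841 lower in HFD + hIRI over ND + hIRI (edgeR 75 and 115) and 298 and 146 in ND + hIRI over ND + sham (edgeR 0 and 0), limma voom gave 380 and 423 and then 426 and 270 in these, and the covariate left 12 and 6 of the 1607 and 1194 calls in HFD + hIRI over HFD + sham. Leaving out 1 library gave 1 to 4742 calls in HFD + hIRI over HFD + sham, 0 to 531 in ND + hIRI over ND + sham (339 higher and 192 lower without ND + hIRI replicate 1) and 4 to 2559 in HFD + hIRI over ND + hIRI.

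With the replicate number as a block, 0 members were higher and 1 lower (Cenpe) in HFD + hIRI over HFD + sham, and 1 higher and 3 lower with the diets together, where E2f1 was lost (adjusted p = 0.063). Over all genes the block gave 1045 higher and 825 lower in HFD + hIRI over HFD + sham, and 1381 and 1115 with the diets together. Of the 18 same-number pairs, 6 had a correlation of their deviations over 0.1 (range -0.42 to 0.21), 3 of them the ND + hIRI and ND + sham pairs, and in no other 2 groups did all 3 pairs pass 0.1. For ND + hIRI over ND + sham the block gave 0 members higher and 0 lower, over all libraries or, chosen after seeing the data, on the ND libraries alone.

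The 8 members with under 10 counts in some library, Cenpe among them, were not tested under the stricter filter. With 3 mice per group, 11 members under 1 CPM on average and every HFD + hIRI library in the higher run of library numbers, smaller differences in mitotic genes were not detectable, and the run and the HFD + hIRI group cannot be fully told apart.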
